A study of Homo sapiens with 6 samples.

Results

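Reverse transcriptase (RT) stops were examined on the mRNAs of 7 nuclear lamina genes: LMNB1, LMNB2, LMNA, LBR, EMD, TMPO and BANF1. The genes were chosen by name, and each had 1 RefSeq transcript in the files, so the set holds 7 of 15739 transcripts. The libraries came from poly(A)-selected RNA of U2OS, a human osteosarcoma cell line, in a study that maps RNA G-quadruplexes (rG4s) by the nucleotides at which RT halts. The study names LMNB1 among mRNAs with an rG4 in the 3′ UTR, so the LMNB1 values below are not an independent finding. In total 6 libraries were analysed, 1 per condition. Those without dimethyl sulfate (DMS) were labelled as reverse transcribed in 150 mM Na+ or in 150 mM K+. For the in vitro libraries, RNA was refolded and DMS-treated in 150 mM K+ or Li+. For the in vivo libraries, DMS at 8% was given for 5 min to unstressed cells or to cells starved for 2 h in Hank's balanced salt solution. RT of all 4 DMS libraries was in 150 mM K+. U2OS is a tumour line, so nothing here speaks for normal tissue.

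The nuclear lamina is a mesh of intermediate filament proteins under the inner nuclear membrane. B-type lamins (lamin B1 from LMNB1, lamin B2 from LMNB2) stay farnesylated and membrane bound, whereas LMNA encodes lamins A and C by alternative 3′ ends. LBR (lamin B receptor), EMD (emerin) and TMPO (lamina-associated polypeptide 2) encode proteins that bind lamins, and BANF1 encodes a small DNA-binding protein that bridges chromatin to emerin and its relatives. An rG4 is a stack of planar arrays of 4 G, held by K+ and much less by Li+ or Na+, and RT coming from the 3′ side halts at its 3′ edge. DMS methylates unpaired A and C, at which RT stops, and also N7 of G, which keeps a G from joining an rG4 afterwards. RT stops at G in DMS-treated RNA therefore read rG4s that had been protected, and RT stops at A and C read unpaired bases.

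There were no replicates. Intervals are at 95% and hold the counting error alone, so that variation between cultures is outside them. Nucleotides with fewer than 3 RT stops were not listed in the files and were counted as 0. Listed RT stops summed to between 12999691 (unstressed cells) and 35371061 (labelled K+) per library. The sample labels and the file names of the libraries without DMS contradict each other on the cation, so these libraries are called by their labels throughout and no direction drawn between them should be read as an effect of the cation. Of the markers of mesenchymal and bone cells, VIM (2987 to 3827 stops per 1000000 listed stops), SPARC and RUNX2 were listed in all libraries, whereas COL1A2 was at 0 in all of them. PTPRC, CDH1 and ALB had at most 0.198 per 1000000 and EPCAM at most 2.29.

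RT-stop enrichment (E) is the number of stops at a nucleotide divided by the mean over the whole transcript, and a strong stop has an E of at least 10 on a transcript with a mean of at least 1. Strong stops at G in either library without DMS were merged into a cluster when they lay within 30 nt of each other, and each cluster was represented by its stop with the highest E. The lamina mRNAs held 13 clusters, of which LMNB2 had 6, LMNA 5, LMNB1 1 and EMD 1. The mRNAs of LBR, TMPO and BANF1 had none. Among all 3611 transcripts tested, 45.4% had at least 1 cluster and 3.57% had at least 5, so 4 of 7 members with a cluster is near the background, while 2 of 7 members carried 5 or more. In total 10 clusters lay in 3′ UTRs and 3 in coding sequence (CDS), and the same count was not made for the other clusters of the transcriptome.

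The 30 nt that end at the strongest stop are shown for 4 clusters of LMNB2 and LMNA, 5′ to 3′ on the strand of the mRNA with t for U, with coordinates in hg19 and runs of at least 2 G in capitals. RT reaches the last base of each line first. The lines show the strongest cluster of LMNB2 and of LMNA and the cluster of each that holds 4 long G runs.
LMNB2-2 (3′ UTR, exon 12 of 12, chr19:2430200-2430229, minus strand): ccaacaGGGcaGGGGaGGGGaagacctGGG
LMNB2-3 (3′ UTR, exon 12 of 12, chr19:2430129-2430158, minus strand): acaataagcaGGGaGGGGagatgtGGaGGG
LMNA-3 (3′ UTR, exon 12 of 12, chr1:156109557-156109586, plus strand): ttagacaagagatGGGaatgaGGtGGGaGG
LMNA-4 (3′ UTR, exon 12 of 12, chr1:156109675-156109704, plus strand): ccaagtGGGGtgctGGGaGGaGGGagaGGG

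The canonical rG4 motif, 4 runs of at least 3 G separated by 1 to 7 bases on the mRNA strand, was found in the 45 nt ending at the stop of 4 of 13 clusters, namely LMNB1-1, LMNB2-2, LMNA-4 and EMD-1. Of all clusters in the transcriptome 13.9% held this motif, as did 0.243% of all windows of that length. LMNB1, LMNB2, LMNA and EMD each had 1 stretch with this motif in the whole transcript, and each stretch had a cluster. LBR, TMPO and BANF1 had no such stretch. With a looser motif of 4 runs of at least 2 G separated by 1 to 9 bases, which takes in the canonical one, 12 of 13 clusters had a match, against 58.9% of all clusters and 9.45% of all windows. The exception was LMNA-1. The looser motif was not enough for a cluster: LMNB2 had 38 such stretches, of which 5 had a cluster, LMNB1 had 9 with 1, LMNA 14 with 4 and EMD 3 with 1. The 8 stretches in LBR, 5 in TMPO and 1 in BANF1 had none. For neither motif was the share of stretches with a cluster computed over all transcripts, so these counts describe the members alone.

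Without DMS, the strong stops of the lamina mRNAs lay almost entirely at G. In the library labelled Na+ there were 33 strong stops on the members, all at G: 13 on LMNB2, 12 on LMNA, 5 on LMNB1 and 3 on EMD. In the library labelled K+ there were 7, of which 6 were at G, with 4 of them on LMNB1. On all transcripts 6074 of 10610 strong stops in the library labelled Na+ and 1843 of 7211 in that labelled K+ were at G. The highest E at any G in LBR, TMPO and BANF1 was 5.13, 6.39 and 6.92 in the library labelled Na+, under the threshold of 10.

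LMNB1 carried a single cluster of 5 strong stops within 10 nt, 656 nt after the stop codon and 100 nt before the end of the transcript model. The strongest stop had 551 stops in the library labelled Na+ and 75 in that labelled K+. RNA refolded in K+ gave 70 stops and RNA refolded in Li+ gave 32, while unstressed cells gave 13 and starved cells 42. The corresponding E was 109, 15.0, 22.2, 7.48, 9.29 and 31.6. The 5 strong stops lay 0, 1, 5, 6 and 9 nt before the strongest one, and their E in the library labelled Na+ was 109, 76.0, 86.3, 49.2 and 10.7, in that order. In the library labelled K+, E was highest 5 nt before that position (23.3), and 15.0 at the position itself, so the order of the stops differed between these libraries.

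LMNB2 had the highest E of all members. LMNB2-3, 780 nt after the stop codon, had 410 stops (E 133) in the library labelled Na+ and was not listed in that labelled K+. Refolding in K+ and Li+ gave 11 and 18 stops, and of the in vivo libraries the strongest nucleotide was listed only in that of starved cells, with 4 stops. A strong stop 1 nt further 3′ had 5 stops in unstressed cells and was not listed in starved cells. LMNB2-2, which lies 71 nt upstream and holds the only canonical motif of this mRNA, had 202 stops (E 65.7) in the library labelled Na+ and was not listed in that labelled K+. The other clusters of LMNB2 in the 3′ UTR had an E of 33.5, 19.5 and 49.7 in the library labelled Na+, and LMNB2-1, in the CDS of exon 11, had an E of 13. The strongest stop of this mRNA was therefore not at its canonical motif.

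LMNA had clusters at both ends of the transcript. LMNA-1 lay 38 nt after the start of the coding sequence, and LMNA-2 to LMNA-5 lay in exons 11 and 12, which are part of the lamin A mRNA and not of the shorter lamin C mRNA. LMNA-3, the strongest, had 321 stops (E 65.5) in the library labelled Na+ and 8 (E 1.73) in that labelled K+. The other clusters in these exons had an E of 11.6, 18.0 and 28.0 in the library labelled Na+. LMNA-1 had 81 stops (E 16.5) in the library labelled Na+ and 98 (E 21.3) in that labelled K+, so it was strong in both.

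EMD had 1 cluster of 3 strong stops in its 3′ UTR, 91 nt after the stop codon. Its strongest stop had 75 stops (E 18.8) in the library labelled Na+ and 6 (E 1.51) in that labelled K+. A stop 7 nt further 3′ had 41 stops in the library labelled Na+ (E 10.3) and 70 in that labelled K+ (E 17.6). The position of the strongest stop of this cluster thus differed between the libraries without DMS.

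**Figure D1:**
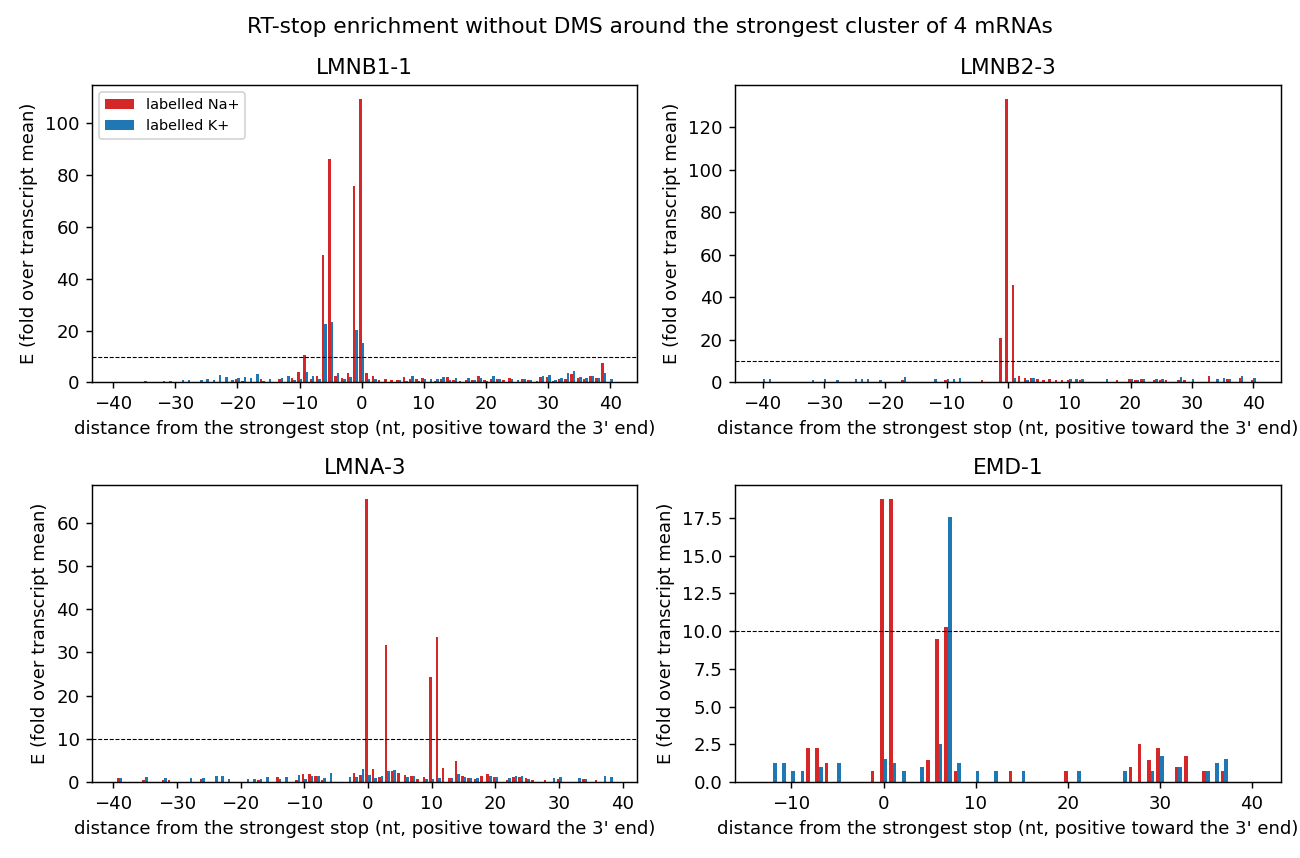
RT-stop enrichment (E, fold over the transcript mean) by distance in nt from the strongest stop, for the strongest cluster of LMNB1, LMNB2, LMNA and EMD in the libraries without DMS labelled Na+ (red) and K+ (blue), with the threshold of 10 as a dashed line. E reaches 109, 133, 65.5 and 18.8 at distance 0 in the library labelled Na+; strong stops labelled K+ are seen in LMNB1 and at 7 nt in EMD.

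Between the libraries without DMS, E at the strongest stop was at least 2-fold higher in that labelled Na+ for 12 of 13 clusters and at least 2-fold lower for 0. Of all 3434 clusters 65.6% were at least 2-fold higher and 4.6% at least 2-fold lower, and all clusters were chosen on these same libraries, so the count is a description. The ratio was 7.26 for LMNB1 (interval 5.70 to 9.37), 37.8 for LMNA-3 (18.9 to 88.2) and 12.4 for EMD (5.46 to 35.0). For LMNB2-3 it was at least 124-fold higher, with 3 stops taken for the library in which it was not listed. LMNA-1 was the exception, at 0.778 (0.572 to 1.05), an interval that includes no difference. With all strong stops of a cluster summed, the LMNB1 cluster had 1671 stops in the library labelled Na+ and 424 in that labelled K+, a ratio of 3.90 relative to the transcript mean (3.50 to 4.35).

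RNA folded in K+ rather than Li+ before DMS treatment gave a stronger LMNB1 stop. Its E of 22.2 in K+ and 7.48 in Li+ differed 2.97-fold (interval 1.93 to 4.66), and the summed cluster had 192 and 115 stops, 2.26-fold higher relative to the transcript mean (1.79 to 2.88). Of the 12 member clusters listed in at least 1 of these libraries, 3 were at least 2-fold higher in K+, against 17.3% of 2567 clusters in the transcriptome, and 0 were at least 2-fold lower, against 4.25%. The others past 2-fold were LMNA-5, with 8 and 4 stops (2.75, interval 0.737 to 12.5), and EMD-1, with 19 and 12 stops (2.02, interval 0.929 to 4.55). Both intervals include no difference. With all strong stops summed, EMD-1 had 42 and 29 stops and was 1.84-fold higher in K+ (1.12 to 3.07), whereas LMNA-5 had 29 and 31 (1.29, interval 0.748 to 2.21). Of 11 summed clusters listed in both, the interval lay above 1 for 2, LMNB1-1 and EMD-1, and below 1 for 0. The share over all clusters was not computed for the sums, so nothing is read from this count. For LMNB2-3, with 11 and 18 stops, the ratio was 0.832 (0.355 to 1.86), and for LMNA-1, with 22 and 30 stops, it was 1.01 (0.554 to 1.81).

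In unstressed cells, relative to RNA folded in K+ in vitro, 4 member clusters had their strongest nucleotide listed in both libraries, and E was at least 2-fold lower for 2 of them (29.7% of 997 such clusters in the transcriptome) and at least 2-fold higher for 0 (6.12%). The other 7 listed clusters were seen only in vitro, so they could not be higher in cells. LMNB1-1, with 13 stops against 70, was 2.39-fold lower (ratio 0.419, interval 0.212 to 0.763). EMD-1, with 9 stops against 19, was 2.10-fold lower (ratio 0.477, interval 0.190 to 1.11). Relative to the mean at G, which was 1.90 stops per G on LMNB1 in vitro and 0.524 in unstressed cells, both were under 2-fold, with LMNB1-1 1.49-fold lower (ratio 0.673, interval 0.341 to 1.23) and EMD-1 1.88-fold lower (0.531, 0.212 to 1.23). The summed clusters, relative to the mean at G, were 1.77-fold lower for LMNB1-1 (0.566, 0.372 to 0.834) and 2.88-fold lower for EMD-1 (0.347, 0.171 to 0.659). LMNA-3, with 19 stops in unstressed cells against 20 in vitro, was instead 2.02-fold higher by this measure (1.02 to 3.98) and 1.42-fold higher relative to the transcript mean (0.717 to 2.80). The summed ratios at G of LMNB2-3 (0.471), LMNA-4 (1.27) and LMNA-5 (0.659) had intervals that include no difference, so the clusters had no common direction. LMNA-1, LMNB2-3 and LMNB2-6 had 22, 11 and 8 stops in vitro at the strongest nucleotide, which was not listed in unstressed cells. With 3 stops taken for these, 5 of 11 clusters were at least 2-fold lower, against 23.3% of 2209, and 0 at least 2-fold higher, against 4.48%, counts that the listing in part fixed and from which nothing is read.

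In starved cells the stop on LMNB1 was stronger than in unstressed cells. Its E rose from 9.29 to 31.6, 3.41-fold (interval 1.79 to 6.91), on 13 and 42 stops. Each of the other strong stops of the cluster also had more stops in starved cells, with 4 and 28, 8 and 33, 5 and 21, and not listed and 11, and the sum went from 30 to 135. Relative to the transcript mean the sum was 4.74-fold higher (3.17 to 7.30). In this same comparison the mean number of stops at all G of LMNB1 went from 0.524 to 0.904 per G, whereas the mean at A went from 3.56 to 3.16 and that at C from 1.04 to 0.571. Relative to the mean at G, the strongest stop was 1.87-fold higher (0.987 to 3.81), an interval that includes no difference. Relative to stops at the other G of the 3′ UTR, of which there were 168 and 336, it was 1.62-fold higher (0.851 to 3.28) and the summed cluster 2.25-fold higher (1.51 to 3.46). The part of the general increase at G in the result for the strongest stop was not tested.

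The in vivo folding score places E in cells between its value in Li+ (score 0) and in K+ (score 1) in vitro. For LMNB1-1 the score was 0.12 in unstressed and 1.64 in starved cells, so E in starved cells lay above that of RNA folded in K+. Relative to the mean at G the scores were 0.48 and 1.41. EMD-1, with 9 and 4 stops in these libraries, had scores of -0.04 and -0.21, and its E changed 0.823-fold (0.185 to 2.95). The scores of LMNA-5 rest on no listed stop and 3 stops and are not given.

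In the comparison of starved with unstressed cells, 4 member clusters had their strongest nucleotide listed in both libraries, and 3 of them were at least 2-fold stronger after starvation, against 46.9% of 925 such clusters in the transcriptome, and 0 at least 2-fold lower, against 1.84%. A further 3 were listed only in starved cells and had to pass 2-fold, since the means of LMNA and LMNB2 were more than 3-fold lower there. LMNA-3 and LMNA-4, listed in both, had 3 stops in unstressed cells, the listing minimum. Any listed count in starved cells therefore put them past 2-fold as well. Nothing is read from the count of 3 of 4, nor from that of 6 of 7 with all listed clusters. The background of the latter was 1883 clusters, with 35.8% at least 2-fold higher and 1.17% at least 2-fold lower. Except for LMNB1-1, the 6 rest on 3 to 6 stops each in starved cells: LMNA-3 had 3 and 4 stops in unstressed and starved cells, LMNA-4 had 3 and 5, and LMNA-1, LMNB2-3 and LMNA-5 were not listed in unstressed cells at this nucleotide and had 6, 4 and 3. The sums over all strong stops of a cluster ran differently: LMNA-3 had 19 in unstressed and 9 in starved cells, LMNB2-3 had 5 and 4, LMNA-5 had 9 and 13, and EMD-1 had 13 and 14. Relative to the transcript mean, the summed ratio was 1.56 for LMNA-3 (0.622 to 3.62), 2.76 for LMNB2-3 (0.548 to 12.8), 4.76 for LMNA-5 (1.88 to 12.6) and 1.99 for EMD-1 (0.869 to 4.61). Relative to the mean at G it was 0.884 for LMNA-3, 1.91 for LMNB2-3, 2.70 for LMNA-5 (1.07 to 7.15), 1.53 for EMD-1 and 2.61 for LMNB1-1 (1.75 to 4.02). In these sums nucleotides that were not listed counted as 0. LMNA-5 had such nucleotides in both libraries, and its intervals do not cover the stops left out there. At the strongest nucleotide the ratio was 4.39 for LMNA-3 (0.743 to 29.99) and 5.49 for LMNA-4 (1.07 to 35.4). The transcript mean of LMNA was 2.21 stops per nt in unstressed and 0.671 in starved cells, and that of LMNB2 was 1.53 and 0.443, so a few stops made a large E there. Relative to the mean at G, in place of the whole transcript, 2 of the 4 listed in both were at least 2-fold higher, against 22.6% in the transcriptome, and 0 at least 2-fold lower, against 7.57%. The 2 were LMNA-3 (2.49, interval 0.421 to 17.0) and LMNA-4 (3.11, 0.605 to 20.0), and both intervals include no difference. With 3 stops in unstressed cells, both ratios were again in part fixed by the listing. With those listed only in starved cells included, the count was 4 of 7 against 15.8%, which the listing likewise in part fixed. At the strongest nucleotide the other 6 member clusters were listed in neither library, and 5 had no listed strong stop in either, while LMNB2-2 had 3 stops in starved cells 1 nt further 3′. With 3 stops worth an E of 6.77 on LMNB2 in starved cells, weaker stops on that mRNA were not detectable.

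**Figure D2:**
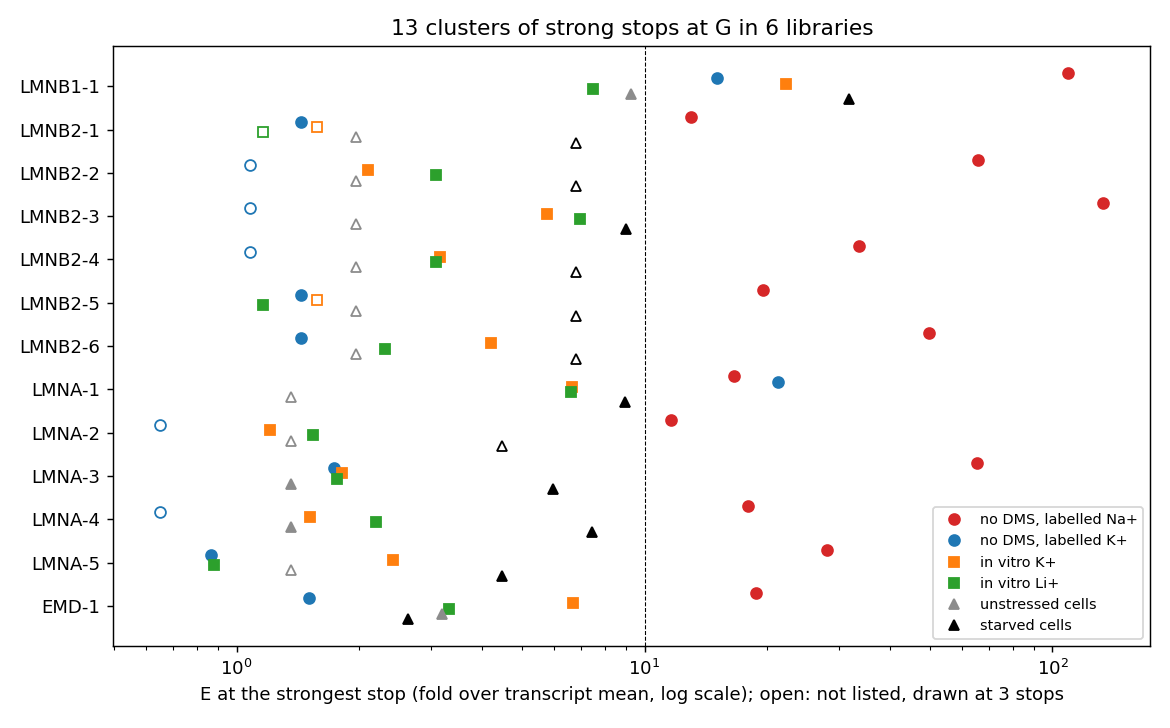
E at the strongest stop of each of the 13 clusters (log axis, fold over the transcript mean) in the 6 libraries, with open symbols for nucleotides that were not listed, drawn at the E of 3 stops. LMNB1-1 has an E of 9.29 in unstressed and 31.6 in starved cells, whereas most LMNB2 clusters are open in both.

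By E over the 6 libraries, the clusters most like LMNB1-1 among 814 compared were those of RAB5C, ATF6B and PFDN6, with a root mean square difference in log2 E of 0.40, 0.52 and 0.56. RAB5C, an endosomal GTPase, had an E of 89.9 in the library labelled Na+, 8.28 in unstressed and 29.4 in starved cells. The E of the unstressed and starved libraries was part of this choice.

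Stops at A and C read unpaired bases once DMS is present. On LMNB1 they made up 46.6% (labelled Na+) and 49.4% (labelled K+) of listed stops where no DMS was used. Their share was 82.4% after refolding in K+, 81.4% after refolding in Li+, 92.2% in unstressed cells and 80.1% after starvation. All 7 members had a lower A and C share in starved than in unstressed cells, by 4.39 percentage points (LMNB2) to 12.0 (LMNB1), and so had 97.8% of 5804 transcripts, with a median change of -9.37 points. The lower share is therefore no property of the lamina mRNAs. Within it, A and C did not move alike: on LMNB1 the mean at A over the mean at C was 3.43 in unstressed and 5.54 in starved cells, while the transcriptome median was 2.15 and 2.89.

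Around each cluster, A and C stops were counted from 30 nt before its first to 30 nt after its last strong stop. They were taken as a share of all A and C stops of the transcript. For LMNB1 this share was 1.37% (103 stops) for RNA refolded in K+ and 1.09% (115) for Li+. Unstressed cells had 5.21% (171) and starved cells 3.50% (92). The share was 1.49-fold lower in starved than in unstressed cells, a ratio of 0.671 with an interval of 0.515 to 0.869. Around LMNA-3 the share was instead 4.47% (226 stops) and 8.17% (59), a ratio of 1.83 (1.35 to 2.44). Around LMNB2-3 there were 54 such stops in unstressed cells and none listed in starved cells, and around LMNB2-2 there were 6 and 9 (ratio 10.8, interval 3.42 to 36.7). Listed A and C stops fell from 4555 to 635 on LMNB2 and from 5051 to 722 on LMNA. The listing minimum thus in part fixed the LMNB2 values, from which no direction is read, and its part around LMNA-3 was not tested. Over all 13 clusters together the ratio was 0.936 (0.817 to 1.07), and 0.884 (0.799 to 0.977) with 60 nt in place of 30. Between K+ and Li+ in vitro 0 of 13 intervals excluded 1, with LMNB1 at 1.26 (0.953 to 1.65). No such count was made over all clusters of the transcriptome, so nothing is read from it.

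The position of the stops along the transcript also differed between libraries. On LMNB1 the 3′ UTR held 46.2%, 41.3%, 39.9% and 38.4% of stops in the libraries labelled Na+ and K+ and in vitro in K+ and Li+, but 75.9% in unstressed and 79.7% in starved cells. For TMPO the share was 49.5% to 53.1% in the 4 libraries from purified RNA and 96.1% and 95.8% in cells, and for LBR 64.2% to 67.3% and 95.4% and 96.8%. BANF1, the shortest of the 7, showed least of this, with 62.7% to 66.8% against 72.6% and 72.3%. The skew was general: the last 25% of the transcript held a median of 27.1% to 28.6% of stops in the libraries from purified RNA and 47.7% and 49.6% in cells, over 5553 transcripts. The mean in unstressed cells was 0.561 stops per nt on TMPO, 1.02 on LBR and 6.06 on BANF1, so stops were sparser on TMPO and LBR than on BANF1. The part of the listing minimum in the skew was not tested.

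**Figure D3:**
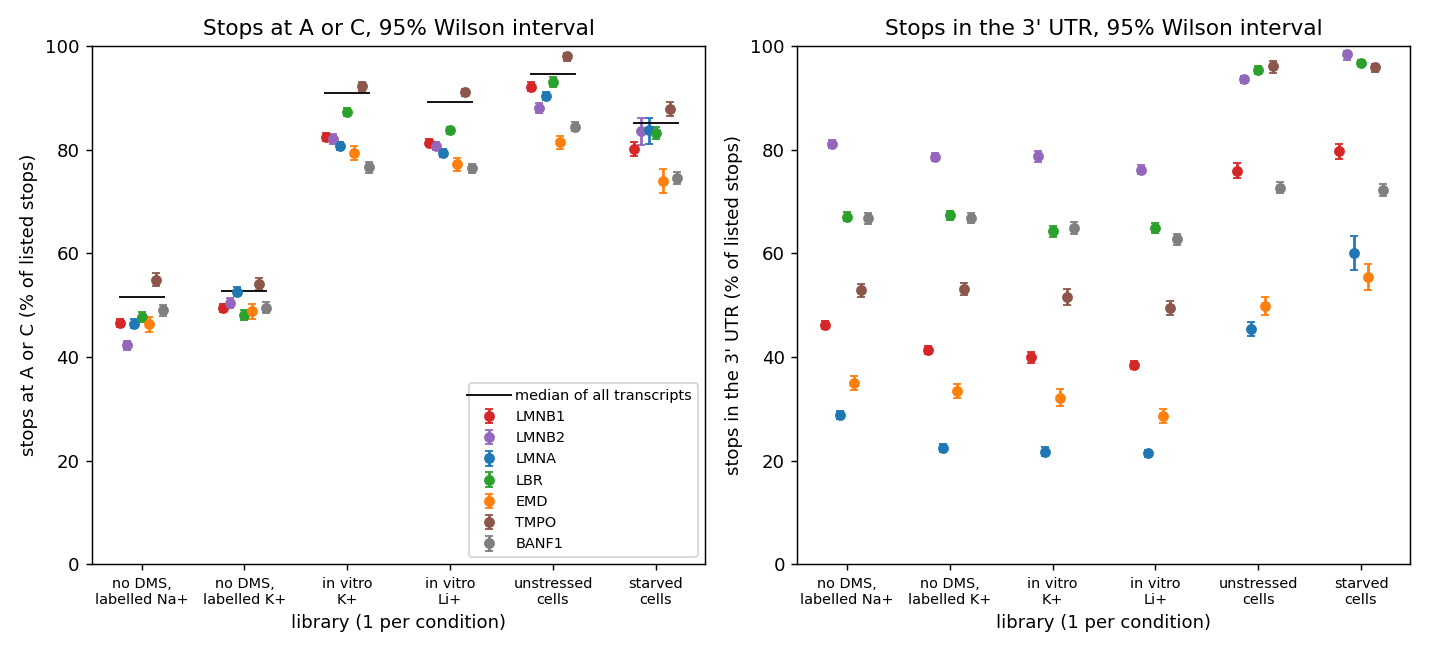
Left, stops at A or C, and right, stops in the 3′ UTR, both as percent of listed stops on each mRNA in the 6 libraries, with 95% Wilson intervals and, on the left, the median of all transcripts as a black line. On LMNB1 the A and C share is 92.2% in unstressed cells against 80.1% after starvation, and the 3′ UTR share is 38.4% for RNA refolded in Li+ against 75.9% in unstressed cells.

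The share of all listed stops that fell on each transcript was compared between libraries. Whether a change of this share is a change in the amount of the mRNA was not tested. Pooled RNA also cannot tell fewer cells with an mRNA from fewer copies per cell. In starved cells the share of LMNB2 and LMNA was lowest relative to unstressed cells. Per 1000000 listed stops of a library, LMNB2 had 356 (labelled Na+), 299 (labelled K+), 298 (refolded in K+), 309 (refolded in Li+), 398 (unstressed) and 31.6 (starved). It was 12.6-fold lower in starved than in unstressed cells (interval 11.7 to 13.6). LMNA had 438, 388, 424, 428, 430 and 35.9 in the same order, 12.0-fold lower (11.2 to 12.9). The first 5 values of LMNA are close to each other and only the starved library stands apart. These folds rest on listed stops, and nucleotides under 3 stops weigh more where an mRNA has few: the mean over all nucleotides went from 1.53 to 0.443 stops per nt on LMNB2 and from 2.21 to 0.671 on LMNA. With the totals estimated from these means, LMNB2 was 6.20-fold and LMNA 5.92-fold lower.

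LMNB1, the other B-type lamin, had 480, 447, 423, 414, 274 and 137 in that order. It was 2.00-fold lower in starved cells (1.91 to 2.10), which puts it on the 2-fold threshold (1.89-fold with estimated totals), and it was already 1.55-fold lower in unstressed cells than in vitro in K+. The B-type lamin mRNAs thus differed in size of change by either total. EMD was 4.26-fold lower (4.01 to 4.53) at 260 and 60.9, and 3.33-fold lower with estimated totals. BANF1 was 2.31-fold lower (2.23 to 2.39) at 517 and 224, and 2.22-fold with estimated totals. LBR, at 209 and 171, was 1.22-fold lower (1.16 to 1.28), and 1.29-fold with estimated totals. TMPO, at 82.5 and 92.1, was 1.12-fold higher (1.04 to 1.20) by listed stops but 1.10-fold lower with estimated totals, so its direction depends on the stops that are not listed.

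In all 5 of 7 members were at least 2-fold lower in starved cells, against 34.4% of 5883 transcripts, and 0 were at least 2-fold higher, against 17.4%. With estimated totals the count was 4 of 7, against 29.5% of 5608 transcripts. The median ratio over all transcripts was 0.837, and 0.797 with estimated totals. Between the other pairs of libraries the members moved little, with ratios of 0.966 to 1.10 between K+ and Li+ in vitro and of 0.914 to 1.19 between the libraries labelled Na+ and K+. No member was 2-fold apart there, as were few transcripts (0.17% lower in K+ than in Li+, 0.709% higher in the library labelled Na+). Unstressed cells against RNA folded in K+ in vitro gave ratios of 0.423 for TMPO (0.574 with estimated totals), 0.646 for LMNB1 and 0.648 for LBR, and of 1.66 for EMD and 1.76 for BANF1. Of all 6580 transcripts 12.7% were at least 2-fold lower in this comparison, as 1 member (TMPO) was, and 6.52% were at least 2-fold higher, as 0 members were. Starved cells against the same in vitro library, a comparison that shares its libraries with those above, had 5 of 7 members at least 2-fold lower (31.2% of 6541 transcripts) and 0 at least 2-fold higher (11.3%): LMNA was 11.8-fold, LMNB2 9.44-fold, LMNB1 3.10-fold, EMD 2.56-fold and TMPO 2.12-fold lower. With estimated totals TMPO was 1.74-fold lower in unstressed cells and 1.91-fold lower in starved cells than in vitro, under 2-fold in both, and the members at least 2-fold lower in starved cells than in vitro were LMNA (5.38), LMNB2 (4.70), LMNB1 (2.60) and EMD (2.04), against 24.6% of transcripts.

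**Figure D4:**
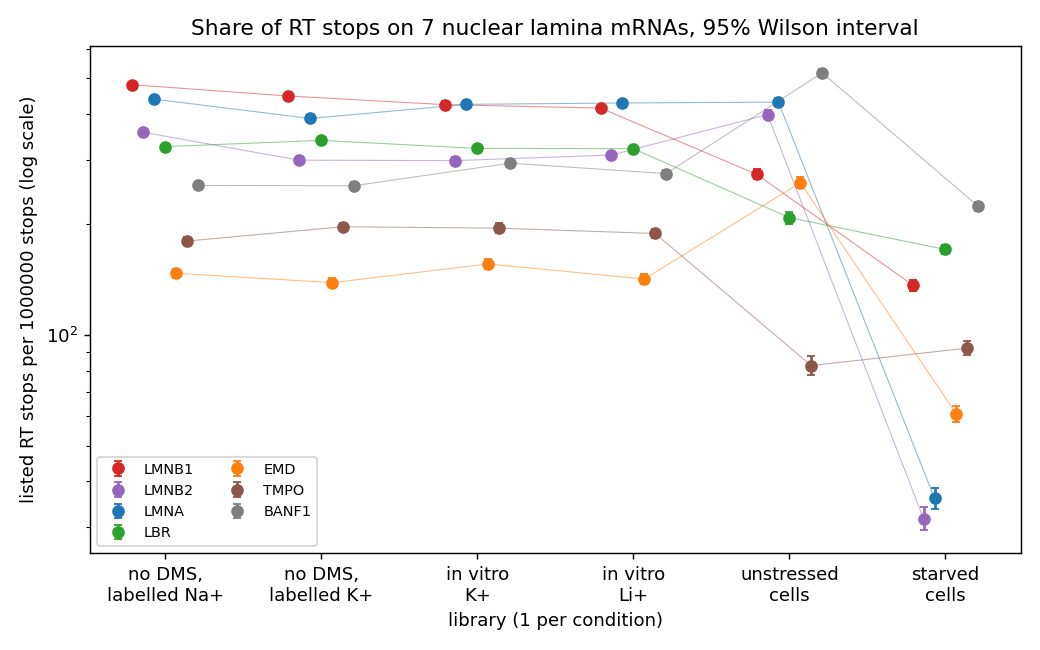
Listed RT stops per 1000000 stops of the library (log axis) for the 7 lamina mRNAs in the 6 libraries, not divided by length, with 95% Wilson intervals. LMNB2 and LMNA are at 398 and 430 in unstressed and 31.6 and 35.9 in starved cells, whereas TMPO is at 82.5 and 92.1, a direction that turns with estimated totals.

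The share ratios went with the base composition of the transcript, in directions that differed between comparisons. Over 5608 transcripts the log2 share ratio of starved to unstressed cells and the GC content had a Spearman correlation of -0.79 with listed and with estimated totals, a description across transcripts of the same 2 libraries. With estimated totals the correlation was 0.71 for unstressed cells over RNA refolded in K+ and -0.48 for starved cells over the same library, so the relation with GC content had opposite signs in the 2 in vivo libraries. The GC content was 61.5% for LMNA, 61.1% for LMNB2, 58.6% for EMD, 53.5% for BANF1, 47.8% for LMNB1, 42.1% for TMPO and 38.0% for LBR. The median of transcripts with 60 to 65% GC was 4.97-fold lower, and LMNA and LMNB2 were further down. LBR was 1.22-fold lower although the median at 35 to 40% GC was 2.02-fold higher. BANF1 lay near the median of its bin, which was 2.33-fold lower at 50 to 55%, and 6 of 7 members lay below theirs. With estimated totals the medians were 3.12-fold lower at 60 to 65%, 1.49-fold higher at 35 to 40% and 2.00-fold lower at 50 to 55%, and all 7 members lay below theirs. The part of GC content in the share changes was not tested.

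**Figure D5:**
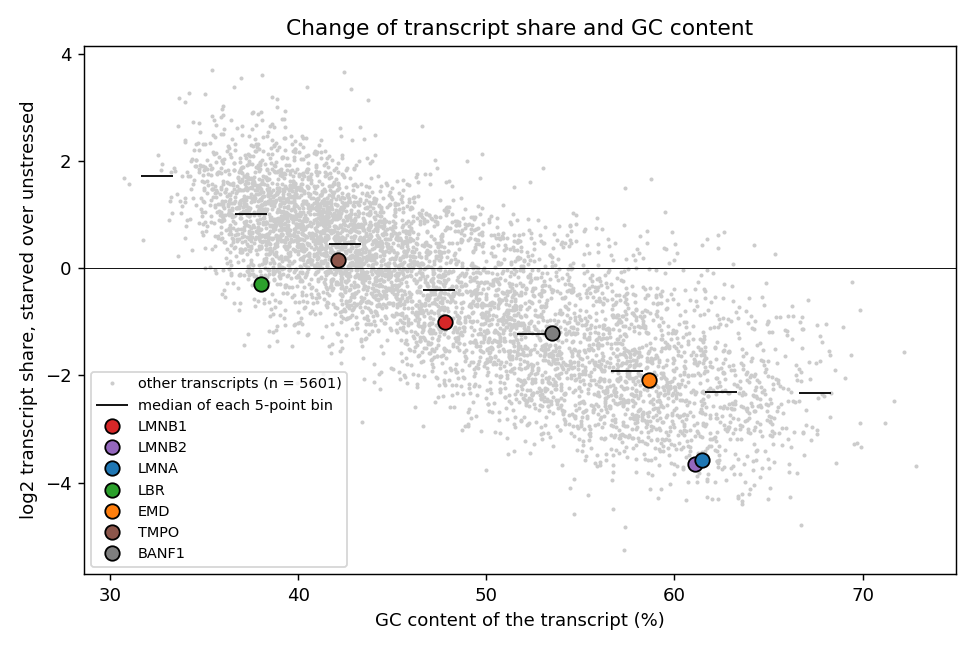
The log2 ratio of transcript share, starved over unstressed cells, against GC content (%) for 5608 transcripts, with the 7 lamina mRNAs in colour and the median of each 5-point bin as a line. LMNA and LMNB2, at 61.5% and 61.1% GC, lie at -3.58 and -3.65, and LBR, at 38.0% GC, at -0.29, all by listed stops.

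By part of the transcript, the 3′ UTR of LMNB1, which holds its cluster of strong stops and has 32.8% GC, went from 2703 to 2616 listed stops, 1.91-fold lower as a share of the library. Its coding sequence had 830 and 664 stops and its 5′ UTR 26 and 3. On LMNA the coding sequence had 2925 and 338 stops and the 3′ UTR 2539 and 518. On LMNB2 the coding sequence had 330 and 12 and the 3′ UTR 4843 and 747. In starved cells listed stops were under 1 per nt in each of these parts but the 3′ UTR of LMNB1, so no other fold is given.

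Per kb of transcript, BANF1 had the highest level in every library, at 270 stops per 1000000 and kb in the library labelled Na+, 547 in unstressed and 237 in starved cells. LMNB1 was next in the 4 libraries from purified RNA, at 143 to 166, followed by LMNA, EMD, LBR, LMNB2 and TMPO, and no neighbours in this order had overlapping intervals. In unstressed cells the order was BANF1, EMD (203), LMNA (135), LMNB1 (94.7), LMNB2 (85.9), LBR (55.7) and TMPO (22.8). In starved cells EMD (47.6), LMNB1 (47.3) and LBR (45.6) could not be separated, TMPO was at 25.5, and LMNA (11.3) and LMNB2 (6.82) were lowest. These levels count listed stops alone, and the minimum of 3 leaves out more where stops are few. By the pattern of share over the 6 libraries, RNF145, KLF10 and MARS1 were most like LMNB1 among 2970 transcripts, with a root mean square difference in log2 share of 0.050, 0.059 and 0.062.

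Among 32 other genes of the nuclear envelope and of lamin processing, 31 were listed and 23 had at least 100 stops in both in vivo libraries. Of these 23, 5 were at least 2-fold higher in starved cells, 8 at least 2-fold lower and 10 in between, with a median 1.32-fold lower. With 34.4% of all transcripts lower and 17.4% higher, these counts are near the background. With estimated totals 2 were higher (6.85% of all transcripts), 5 lower (29.5%) and 16 in between. The highest ratios by listed stops were those of VRK1, a kinase that phosphorylates BANF1 (4.74), and CNEP1R1, a subunit of a nuclear envelope phosphatase (3.39). The lowest were those of VPS4A and CHMP7, which act in membrane remodelling by ESCRT-III, at 6.30-fold and 6.01-fold lower. With estimated totals VRK1 was at 2.01, CNEP1R1 at 1.49, VPS4A 3.74-fold lower and CHMP7 3.08-fold lower.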

How the data were processed

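The authors used Bowtie on an hg19 transcriptome and kept reads that fitted 1 place perfectly, with duplicates (by SAMtools), adapters and barcodes taken off beforehand. Versions are not given in the sources used here. They deposited the count of RT stops at every nucleotide that had 3 or more, and the ratio of that count to a mean of the transcript. The methods describe a mean over the whole transcript, whereas in the files it is over nucleotides of the same base. The mean over the whole transcript was therefore rebuilt by weighting each base mean with the share of that base in the transcript. Transcripts were matched to GENCODE release 44 on GRCh37 (hg19) by their listed bases, where 80% or more of these could be placed and 97% or more were identical. The files held 15739 transcripts; a match was sought for the 11031 with 15 or more listed bases and found for 10359. The matched model of LMNB1 begins 513 nt after the start of its RefSeq transcript.

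There was 1 library per condition, so no test was made. Differences were called at 2-fold. Shares have Wilson intervals and ratios exact conditional binomial intervals, which cover counting error and not stops left out under the minimum of 3. Transcript shares were compared for transcripts with at least 100 listed stops in both libraries. A nucleotide that was not listed entered a ratio as 3 stops. The members and gene lists were chosen with earlier results of these data known. Named were all members, the 2 highest and 2 lowest ratios among other envelope genes, and the 3 transcripts and 3 clusters most like LMNB1. The steps were tested on simulated data. The values were recomputed under 22 other settings, 3 of them added after the data were seen. Totals that include stops under the minimum were estimated as the mean times the length. Calculations ran in Python 3.11.15 with scipy 1.17.1, pandas 2.3.3 and numpy 2.4.6, and figures in matplotlib 3.10.9. The sequences of some clusters are not reported here.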

Additional observations from a re-analysis of the deposited data

How the results depend on the processing

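With a strong stop set at an E of at least 5 in place of 10, strong stops at G on the members went from 33 to 85, clusters from 13 to 40, clusters at least 2-fold apart between the libraries without DMS from 12 to 24, and clusters at least 2-fold higher in starved cells from 6 to 12. With an E of at least 20 there were 21 strong stops, 8 clusters and 7 clusters apart between the libraries without DMS. With the stops of a cluster summed, 1 cluster (LMNB1-1) in place of 3 was at least 2-fold higher in K+ than in Li+. With the opposite assignment of the cation labels, 12 clusters in place of 0 were at least 2-fold higher in the library taken as K+, which follows from the construction. The A and C share of the members together changed by -8.27 percentage points between unstressed and starved cells, and by -7.17 over positions with at least 10 stops. Relative to stops at other G of the 3′ UTR, a setting chosen after seeing the data, LMNB1-1 was 1.62-fold higher in starved cells in place of 3.41-fold. Relative to the mean at G, also chosen after seeing the data, LMNB1-1 and EMD-1 were no longer 2-fold lower in unstressed cells than in vitro, at ratios of 0.673 and 0.531. With totals estimated from the means, 4 members in place of 5 were at least 2-fold lower in starved cells, all 7 share ratios moved out of their counting intervals, those of LMNB2 and LMNA went from 0.0794 and 0.0834 to 0.161 and 0.169, and that of TMPO from 1.12 to 0.911. Of 62 alternative values, 44 stayed within 1.5 times the count or within the interval of the value as reported, 17 moved and 1 reversed. The 1 reversed was the opposite assignment of the labels, and the change of direction of TMPO was counted among those that moved. No paired analysis was possible because each condition had 1 library. Leaving out a replicate was likewise not possible, and depth in the in vivo libraries limits the clusters of LMNB2 and LMNA.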

Other observations

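The single strong stop at another base than G on the members without DMS was at an A of LMNB2, 39 nt before the end of the transcript. It had 13 stops in the library labelled Na+ and 28 in that labelled K+ (E 4.23 and 10.1), 18 after refolding in K+ and 24 after refolding in Li+. The in vivo libraries held 13 (unstressed) and 16 (starved). Its E in starved cells was 36.1 because the transcript mean there was 0.443, under the mean of 1 that a strong stop needs.

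With DMS, most strong stops lay at A, on the members as on all transcripts. Of 20 on the members after refolding in K+, 14 were at A, 2 at C and 4 at G (3 on LMNB1 and 1 on EMD), where all transcripts had 88.3% at A and 2.93% at G. Of 20 after refolding in Li+ all were at A (89.4% on all transcripts). There were 166 in unstressed cells (150 at A, 15 at C and 1 at G), against 83.5% at A and 1.04% at G on all transcripts, and 71 in starved cells (66 at A and 5 at G), against 92.4% and 3.26%. These totals leave out mRNAs with a mean under 1, which were LMNB2, LMNA and TMPO in starved cells and TMPO in unstressed cells. On the 4 mRNAs that passed in both, there were 111 and 71. LMNB1 had 58 of the strong stops in unstressed and 44 in starved cells, 4 of the latter at G and all in its cluster.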
